A study of Mus musculus with 4 samples.

Results

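Transcripts of the mitochondrial ribosomal proteins were followed across the 4 arrays of a study of mouse dendritic cells. Members were the genes whose symbol in the platform annotation starts with Mrpl or Mrps and a number, read from probe sets that name 1 gene, and kept where the signal passed 33.3, the 40th percentile of all deposited signals, on at least 1 array. The rule matched 74 genes, all 74 passed, and they stand among 9473 measured genes of the series. By symbol, 47 belong to the Mrpl and 27 to the Mrps series.

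The cells were CD11c+ dendritic cells labelled IL10-/-, that is, from mice with a disrupted interleukin 10 gene, a genotype that all groups share, and each group was held for 6 h and measured on 1 array. The groups were media alone, SEA, LPS, and SEA and LPS together (SEA/LPS). LPS is a bacterial cell wall component sensed by TLR4. SEA is not spelled out in the labels, and in this field it commonly denotes the soluble egg antigen of schistosomes, a reading on which no value here depends. Doses, the animals' age, the tissue of origin and any pooling of animals are not stated, and all samples carry 1 lot label. Because no group was repeated, no difference has a replicate error, no test was run, and differences are described by size and set against the same measure over all genes.

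Mitochondria carry their own ribosome, which translates the few messages of the mitochondrial genome into core subunits of the respiratory chain and ATP synthase. Its proteins are all encoded in the nucleus, made in the cytosol and imported, so their transcripts depend on nuclear transcription. Many descend from bacterial ribosomal proteins and others were gained in mitochondria. In dendritic cells and macrophages, sensing of LPS is known to be followed by a move from oxidative phosphorylation toward glycolysis.

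The labels and the arrays were checked first. The Il10 probe set read 37.9 in media, 52.1 after SEA, 303.6 after LPS and 93 for both agents, so a transcript was read in cells labelled IL10-/-. The labels name neither the deleted part nor where the probe set lies, so these readings do not check the genotype, and no comparison below is between genotypes. Of 12 dendritic cell markers, 12 lay above the floor in media, SEA and LPS and 11 in SEA/LPS, with summed signals from 20386 to 26775. Of 7 T cell markers, 6 (Cd3e, Cd3g, Cd3d, Cd4, Cd8b1 and Cd2) were at or under the floor on all 4 arrays. Cd8a lay above it on both arrays with LPS. On the LPS array, markers above the floor were 2 of 5 for B cells, 3 of 4 for NK cells and 4 of 6 for neutrophils. They were 4 of 5 for mast cells and basophils, 2 of 3 for erythroid and 3 of 6 for stromal cells. In media the counts were 3, 2, 3, 3, 1 and 1 in the same order. The summed signal of each of these lists ran between 81.3 and 406. The arrays had equal trimmed means of 150.1, while the hybridisation controls, spiked transcripts unrelated to the cells, were 0.55 log2 brighter on the LPS array and 0.31 on the SEA/LPS array than in media. The Gapdh 3' over 5' ratio, a sign of RNA quality, ran from 2.21 in media to 3.12 in SEA/LPS. In bulk RNA, fewer cells of a type and less RNA per cell cannot be told apart.

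The members most uniformly lower with LPS, and the single member higher on both arrays with LPS, are shown by the 250 bases before their annotated start (RefSeq, GRCm38.p6, 5' to 3' on the gene's strand). Capitals mark the letters of searched motifs: GCATGCGC for NRF1, CCGGAAG for ETS factors such as GABP, AAGATGG for YY1, CACGTG for the E-box and TGACGTCA for CREB, each on both strands. Mrps18b, Mrpl12, Mrpl18 and Mrps11 were at least 2-fold lower with LPS both without and with SEA, and Mrpl27 is the member higher on both. Both choices were made on the deposited values and depend on scaling, as given below.
Mrps18b, chr17:35916441-35916690, strand -: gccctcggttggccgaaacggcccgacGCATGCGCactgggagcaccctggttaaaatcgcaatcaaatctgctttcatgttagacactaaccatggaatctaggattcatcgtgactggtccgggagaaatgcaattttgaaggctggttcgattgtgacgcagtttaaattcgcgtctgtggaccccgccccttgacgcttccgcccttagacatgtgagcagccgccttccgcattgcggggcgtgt
Mrpl12, chr11:120484387-120484636, strand +: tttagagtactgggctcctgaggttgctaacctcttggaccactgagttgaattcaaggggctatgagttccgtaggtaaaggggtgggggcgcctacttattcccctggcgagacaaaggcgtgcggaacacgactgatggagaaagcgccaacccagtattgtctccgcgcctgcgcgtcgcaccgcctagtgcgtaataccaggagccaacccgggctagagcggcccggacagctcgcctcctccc
Mrpl18, chr17:12916092-12916341, strand -: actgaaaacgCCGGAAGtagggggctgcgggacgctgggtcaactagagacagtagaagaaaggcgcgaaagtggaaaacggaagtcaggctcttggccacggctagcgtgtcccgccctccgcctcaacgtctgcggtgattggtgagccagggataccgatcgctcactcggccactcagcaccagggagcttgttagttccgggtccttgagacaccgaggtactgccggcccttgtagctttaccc
Mrps11, chr7:78782881-78783130, strand +: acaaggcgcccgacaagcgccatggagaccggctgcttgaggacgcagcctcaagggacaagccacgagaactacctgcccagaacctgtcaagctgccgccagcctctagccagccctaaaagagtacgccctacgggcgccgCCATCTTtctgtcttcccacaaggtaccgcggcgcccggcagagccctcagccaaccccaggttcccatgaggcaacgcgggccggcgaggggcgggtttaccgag
Mrpl27, chr11:94653541-94653790, strand +: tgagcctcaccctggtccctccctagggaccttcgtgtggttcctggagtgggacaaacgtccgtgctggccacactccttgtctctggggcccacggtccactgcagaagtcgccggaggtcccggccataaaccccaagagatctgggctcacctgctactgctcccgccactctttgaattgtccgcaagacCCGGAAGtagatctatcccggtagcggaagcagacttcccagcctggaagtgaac
Upstream, the Mrps18b window holds the NRF1 letters, Mrpl18 and Mrpl27 the ETS letters and Mrps11 the YY1 letters, while Mrpl12 holds none of them. In the first 50 transcribed bases, not shown, Mrps18b holds the NRF1 letters again and the ETS letters. The ETS letters thus stand at Mrpl27, higher with LPS, and at Mrpl18 and Mrps18b, lower.

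NRF1 and the ETS factor GABP are known activators of nuclear genes for mitochondrial proteins, and YY1 is a further factor found at such promoters. RefSeq windows of 300 bases, from 250 before to 50 after the start, were present for 65 of 74 members, in 71 windows. The ETS letters stood in 24 of 71 member windows (33.8%), against 16.2% of the 9902 windows of measured genes and 8.86% of all 32851 windows. The YY1 letters stood in 12 (16.9%, against 6.95% and 6.34%) and the NRF1 letters in 8 (11.3%, against 4.88% and 2.71%). E-box letters were in 7 windows (9.86%, against 9.57% of measured genes) and CREB letters in 2 (2.82%, against 2.73%), while the NF-kappaB consensus was in 0 (against 0.222%). GC content was alike, with a median of 58.7% in member windows and 60% for measured genes. The median LPS over media difference was -0.49 log2 for the 24 genes with the ETS letters and -0.41 for the 41 genes without them. For the other motifs the medians with and without the letters were -0.29 and -0.50 (NRF1, 8 genes with), -0.35 and -0.50 (YY1, 12 genes), -0.23 and -0.49 (E-box, 5 genes) and -0.91 and -0.41 (CREB, 2 genes). These groups are small, the gaps run in both directions, and none was tested.

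LPS over media gave the members a modest and broad difference downward. The largest was that of Mrps18b, one of the mammalian proteins related to bacterial S18, which read 138.5 in media, 150.7 after SEA, 40.5 after LPS and 66.5 after SEA/LPS, a log2 difference of -1.77 for LPS over media. The 2 arrays with LPS lay below both arrays without it. The median over the 74 members was -0.40, against -0.06 over all measured genes, 63 members were below 0 (background 53.3%) and 10 above it (background 43%). By size, 25 of 74 members (33.8%) were at least 1.5-fold lower, against a background of 21%, and 0 were at least 1.5-fold higher, against 14.1%. At 2-fold, 7 were lower (9.46%, background 8.43%) and 0 higher (background 6.06%). On the probe sets used, the members' share was thus above the background at 1.5-fold lower and near it at 2-fold lower. The 1.5-fold excess was smaller with other choices of probe set. From the mean of all probe sets of a gene, 17 of 74 members were at least 1.5-fold lower (all genes 18.8%). Without suffixed probe sets, 15 of 56 were (all genes 20.8%).

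The 10 members above 0 were Mrps6 (0.55), Mrps18c (0.47), Mrpl9 (0.23), Mrpl27 (0.21), Mrpl13 (0.17), Mrpl37 (0.10), Mrpl3 (0.09), Mrps14 (0.08), Mrpl54 (0.03) and Mrps7 (0.03), none past 1.5-fold on the probe set used. Other probe sets read 0.88 and 0.60 for Mrpl13, 0.07 for Mrpl9, -0.14 for Mrpl3 and -0.24 for Mrps14. Among members below 0, single other probe sets of Mrps9 (0.84), Mrpl34 (0.66) and Mrpl51 (0.60) were also past 1.5-fold higher. The count of 0 higher members thus depends on the probe set chosen.

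The scaling of the arrays sets the size of these counts. With the 75th percentiles set equal, 16 members were at least 1.5-fold lower and 2 higher with LPS (median -0.26), against 16.1% and 18.6% of all genes (median 0.02). With the hybridisation controls set equal, 61 were lower and 0 higher (median -0.94), against 48.3% and 5.18% of all genes (median -0.56). The members' median stayed 0.19 to 0.40 log2 below that of all genes under all 9 alternatives. The hybridisation controls were brighter on both arrays with LPS, and their part in the result was not tested.

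**Figure D1:**
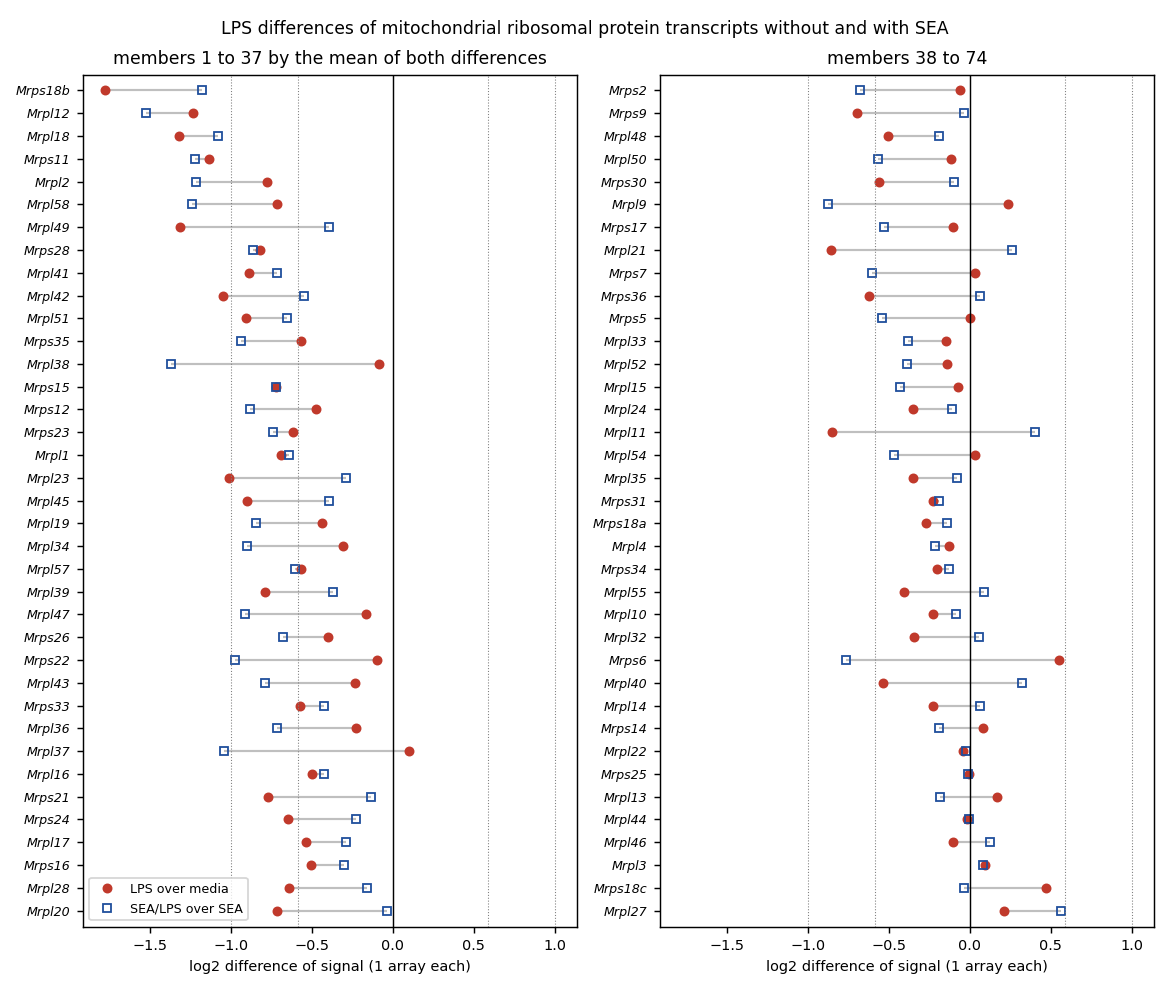
Log2 difference of each of the 74 members for LPS over media (filled circles) and SEA/LPS over SEA (open squares), each from 1 pair of arrays, ordered by the mean of both; dotted lines mark 1.5-fold and 2-fold, and differences of Mrpl1, Mrpl49, Mrps5 and Mrps11 against an array at the floor are bounds. Most points lie left of 0 in both comparisons, and Mrps18b, Mrpl12, Mrpl18 and Mrps11 are past 2-fold lower in both.

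In the large subunit, the stalk recruits translation factors and is built on Mrpl10 and Mrpl11, with Mrpl12 as the flexible arm. Mrpl12, which is also known to bind the mitochondrial RNA polymerase, read 272 in media, 236 after SEA, 115.7 after LPS and 82.2 after SEA/LPS. Its difference was -1.23 log2 for LPS over media and -1.52 for SEA/LPS over SEA, the lowest of all members in the latter. Both arrays with LPS were the dim ones. Mrpl11 read 179.6, 139, 99.4 and 183.3 in the same order, so on the probe set used only the LPS array was low. Its other probe sets differed, at 162.4, 139.1, 109.7 and 111.8, and at 96.8, 83.5, 82.8 and 62.2. Mrpl10 varied little, from 198.5 to 262.7.

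Around the peptidyl transferase centre, where peptide bonds form, members went separate ways. Mrpl2 read 313.1 in media, 313.2 after SEA, 182.8 after LPS and 134.7 after SEA/LPS. The arrays with LPS were both lower. Mrpl27, whose bacterial relative reaches into that centre, read 654.2, 661.9, 757.7 and 977.9. As deposited, it was the 1 member of 74 with both arrays with LPS above both arrays without it (1.35%, background 17.3%). The reverse order held for 47 members (63.5%, background 35.4%). The place of Mrpl27 depends on scaling. With the 75th percentiles set equal, members such as Mrps18c (SEA 0.43, LPS 0.61 and SEA/LPS 0.60 over media) and Mrpl3 (0.11, 0.23 and 0.39) also met the rule. With the hybridisation controls set equal, Mrpl27 was at -0.34 for LPS over media and did not. A second probe set of Mrpl13 (99.2, 134.2, 182.9 and 183.4) held the order as deposited. Mrpl3 stayed between 308 and 352, and Mrpl16 read 277.3 and 266.1 without LPS against 196 and 198.3 with it.

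The exit tunnel, through which the new chain leaves toward the inner membrane, had 7 of 7 members below 0 for LPS over media, with a median of -0.35. Below 0 in this comparison were 63 of all 74 members and 53.3% of all genes. Mrpl23 read 420.5 in media, 404.1 after SEA, 208.3 after LPS and 331.5 after SEA/LPS, or -1.01 log2 for LPS over media and -0.29 for SEA/LPS over SEA. The LPS array alone was well below the others. Mrpl45, which tethers the ribosome to the inner membrane, read 305.9, 284.9, 163.9 and 217, low on both arrays with LPS. Mrpl22 stayed between 210.7 and 263.3.

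The central protuberance caps the large subunit. For LPS over media it had 9 of 9 members below 0 (all members 63 of 74, background 53.3%), with a median of -0.50. Mrpl18 read 131 in media, 163.8 after SEA, 52.4 after LPS and 77.5 after SEA/LPS, a difference of -1.32 and, with SEA on both arrays, -1.08. Both arrays with LPS were low. Mrpl58, also known as Ict1, a peptidyl-tRNA hydrolase that rescues stalled ribosomes, read 302.9, 366.7, 184.3 and 155.6. Mrpl38 differed by -0.08 for LPS over media and by -1.37 for SEA/LPS over SEA, since its signals of 78.6, 102.3 and 74.2 were followed by 39.7 on the SEA/LPS array alone. Mrpl46 stayed between 263.1 and 306.1.

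Other large subunit members at least 2-fold lower with LPS were Mrpl42, at 287.2, 255.9, 138.8 and 174.8 in the same order of arrays, and Mrpl49, at 82.6, 43.8 and at the floor on both arrays with LPS, at least 2.48-fold lower. Mrpl51 (-0.91) and Mrpl41 (-0.89) followed. Other probe sets were mixed for these: the second one of Mrpl41 read -1.41 and that of Mrpl51 0.60, while that of Mrpl49 (52 in media) was under the floor on both arrays with LPS.

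In the small subunit the 3 relatives of bacterial S18 did not move alike. Mrps18b is a mitochondria-specific small subunit protein, Mrps18c takes the place of the bacterial protein and Mrps18a is found in the large subunit of the assembled ribosome despite its name. Mrps18c read 150.1 in media, 202.7 after SEA, 207.8 after LPS and 197.9 after SEA/LPS, or 0.47 log2 for LPS over media, the second highest of all members. Mrps18a read 226.3, 275.6, 187.3 and 249.8, or -0.27. Against the -1.77 of Mrps18b, the media array was the lowest of 4 for Mrps18c and the LPS array the lowest for the other members of the trio.

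Among platform proteins, which line the message path, Mrps11 read 73.1 in media, 84.4 after SEA, under the floor after LPS and 36.2 after SEA/LPS. It was at least 2.20-fold lower for LPS over media and -1.22 log2 for SEA/LPS over SEA, with both arrays with LPS near the floor. Mrps6 was the highest member for LPS over media (0.55) and read 101.7, 93.2, 149.1 and 54.8, so the highest and the lowest array both held LPS. Mrps15 read 284.5 and 305.8 without LPS against 172.6 and 185.5 with it, at -0.72 in both comparisons. In the head, 5 of 7 members were below 0 for LPS over media (all members 63 of 74, background 53.3%), with a median of -0.57. Mrps9 was at -0.70, with its other probe sets averaging 0.23, while Mrps14 was at 0.08.

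**Figure D2:**
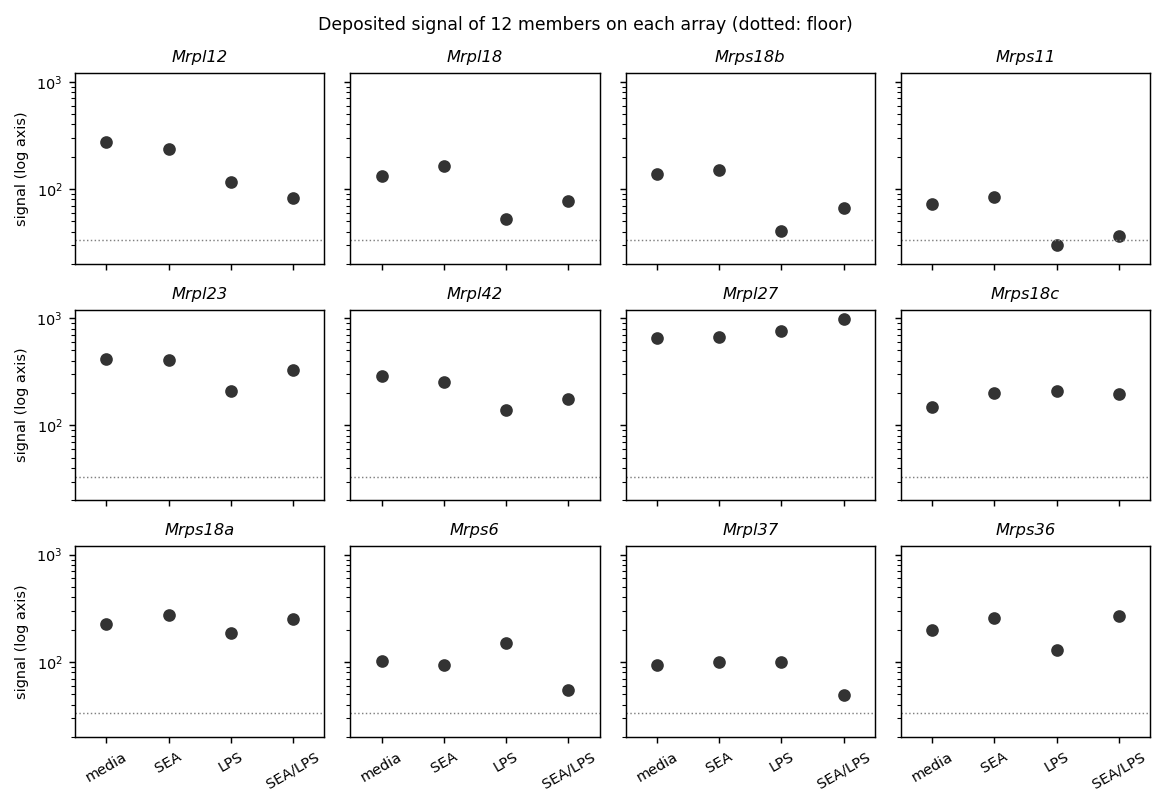
Deposited signal (log axis) of 12 members on the media, SEA, LPS and SEA/LPS arrays, 1 point per array, with the floor of 33.3 dotted. The first 4 panels show low signal on both arrays with LPS, Mrpl27 is highest there, and Mrps6 and Mrpl37 are lowest on the SEA/LPS array.

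The subunits and the evolutionary classes differed little in this comparison. The median LPS over media difference was -0.35 over 49 large subunit proteins and -0.44 over 24 small subunit proteins. At least 1.5-fold lower were 32.7% and 33.3% of them (background 21%). Homologues of bacterial proteins had a median of -0.35 (44 genes) and mitochondria-specific proteins one of -0.40 (27 genes). Mrps36, which is now placed in the alpha-ketoglutarate dehydrogenase complex and not in the ribosome, was counted in neither subunit. Across signal strength, members in a dim, a middle and a bright group of near equal size had medians of -0.41, -0.53 and -0.31. Below 0 were 20 of 25, 22 of 24 and 21 of 25 members (all members 63 of 74, background 53.3%). Members were brighter than the measured genes as a whole, with a median signal in media of 273.8 against 113. Among genes above the floor on all 4 arrays, the median LPS over media difference was -0.38 over 70 members and -0.12 over 7142 genes.

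SEA/LPS over SEA measures the LPS difference again on the other pair of arrays, with SEA on both. The median was -0.39 (all genes -0.15), 64 of 74 members were below 0 (background 61.8%), 28 were at least 1.5-fold lower (37.8%, background 20.4%) and 0 higher (background 9.46%). At 2-fold, 8 were lower (background 6.38%) and 0 higher (background 4.67%): Mrpl12, Mrpl38 (-1.37), Mrpl58 (-1.24), Mrps11, Mrpl2 (-1.22), Mrps18b (-1.18), Mrpl18 and Mrpl37 (-1.04). All 24 small subunit proteins were below 0, with a median of -0.57, and 40 of 49 large subunit proteins were, with a median of -0.38. With the 75th percentiles set equal, 17 members were at least 1.5-fold lower and 2 higher (all genes 12.7% and 14.3%), and with the hybridisation controls set equal 40 and 0 (all genes 33.5% and 6.48%).

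The shift recurred on the second pair of arrays, but the order of members within it recurred little. Across the 74 members, which share the arrays' scaling and are not replicates, the LPS differences without and with SEA had Pearson r = 0.25 and Spearman rho = 0.18, while over all 9473 genes Pearson r was 0.68. Of the 25 members at least 1.5-fold lower without SEA, 12 (48%) were so with SEA as well, which is 42.9% of the 28 found there. The same shares over all genes were 45% and 46.4%. The 12 shared members were Mrpl1, Mrpl2, Mrpl12, Mrpl18, Mrpl41, Mrpl51, Mrpl58, Mrps11, Mrps15, Mrps18b, Mrps23 and Mrps28.

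**Figure D3:**
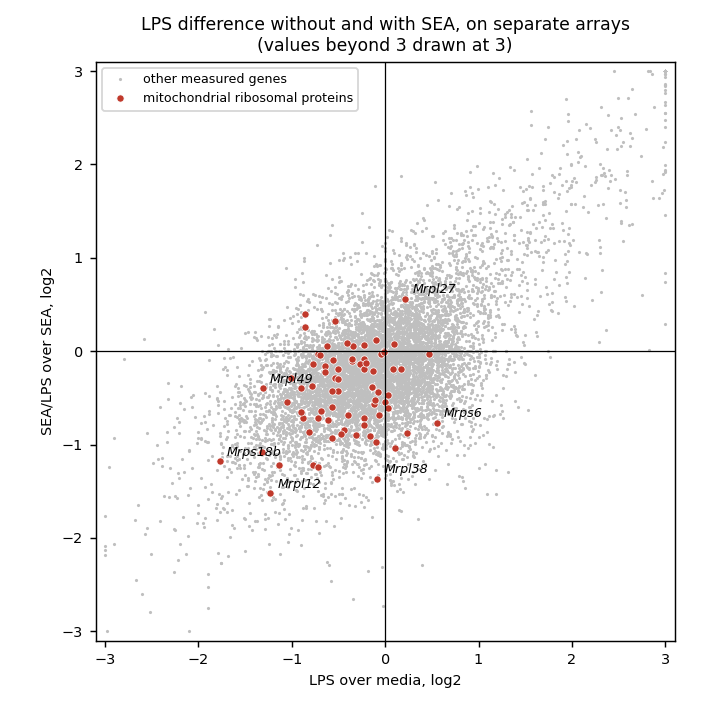
Log2 difference of LPS over media (horizontal) against SEA/LPS over SEA (vertical) for 74 members (red) and the other measured genes (grey), 4 separate arrays in all, with values beyond 3 drawn at 3. Most red points sit below and left of 0; r was 0.25 over the members and 0.68 over all measured genes.

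Other probe sets of the same gene gave a check on single readings. For 28 members with a further probe set above the floor, the median LPS over media difference was -0.52 on the probe set used and -0.16 on the mean of the others, with 18 of 28 below 0 on the latter (52.2% over 3311 genes with such probe sets). Of the 12 such members that were at least 1.5-fold lower, 10 were below 0 on the others, against 571 of 751 genes (76%). For SEA/LPS over SEA the medians were -0.38 and -0.34, with 22 of 28 below 0 on the others (57.4% of the 3311 genes). Across these 28 members, whose probe sets share a gene and the arrays, r between the used and the other readings was 0.38 for LPS over media and 0.14 for SEA/LPS over SEA, against 0.66 in each over 3311 measured genes. Mrps18b, Mrpl12, Mrpl18 and Mrps11 had no other probe set above the floor.

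**Figure D4:**
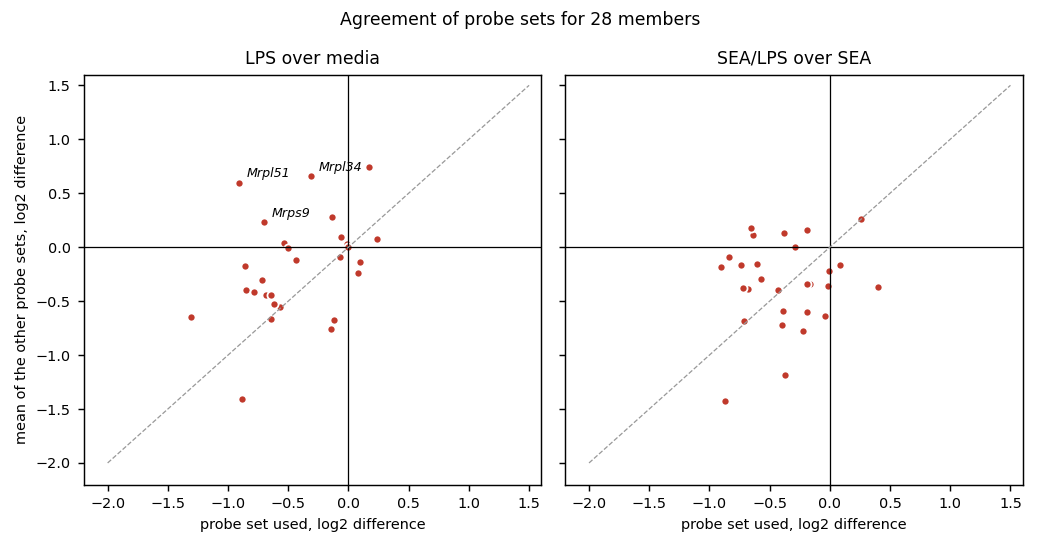
Log2 difference on the probe set used (horizontal) against the mean of the gene's other probe sets (vertical) for 28 members, for LPS over media and SEA/LPS over SEA; the dashed line marks equality. Most points are below 0 on both axes. The sign agreed for 18 of 28 members for LPS over media and for 21 for SEA/LPS over SEA. Mrpl51, Mrpl34 and Mrps9 are among those on opposite sides of 0 for LPS over media.

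SEA alone left the members close to media. The median difference was 0.07 (all genes 0), 42 members were above 0 (background 48.7%) and 32 below (background 45.5%), 0 members passed 2-fold in either direction (background 0.644% higher and 0.633% lower), and 1 was at least 1.5-fold lower (background 4.01%) with 0 higher (background 5.11%). That member was Mrpl49, at -0.92, whose other probe set read 0.08. Next came Mrps24 (-0.42), Mrpl40 (-0.39), Mrpl11 (-0.37), Mrpl21 (-0.35), Mrpl10 (-0.32), Mrpl20 (-0.31), Mrpl17 (-0.27), Mrpl55 (-0.25) and Mrps7 (-0.23). The highest were Mrps5, above the floor on the SEA array only and at least 1.45-fold higher, Mrpl47 (0.49), Mrps25 (0.49), Mrps22 (0.48) and Mrps14 (0.46), followed by Mrps18c (0.43), Mrpl1 (0.43), Mrpl38 (0.38), Mrpl33 (0.35) and Mrps36 (0.35). Other probe sets did not keep this order. Across 28 members r between used and other readings was 0.01, with the same sign in 14 (r 0.11 over 3311 genes). Those of Mrpl1 (-0.44), Mrpl33 (-0.76) and Mrps24 (0.17) lay on the other side of 0. A further probe set of Mrps9 read 43.2 in media and 95 after SEA, past 2-fold. On the probe sets used, the members' values lay between -0.92 and 0.49 apart from the bound of Mrps5. A single array per group cannot separate differences of this size from array-to-array variation.

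SEA/LPS over LPS asks what SEA adds to cells that also meet LPS, and the members showed no common direction. The median was 0.06 (all genes -0.01), with 39 members above 0 (background 42.7%) and 33 below (background 50.6%). At least 1.5-fold higher were 9 (12.2%, background 7.76%) and lower 7 (9.46%, background 13.4%). Of these calls 56.2% were higher as deposited, 66.7% under quantile normalization (12 and 6) and 80% with the hybridisation controls set equal (20 and 5). All genes turned the same way, with 9.89% higher and 10.4% lower under quantile normalization and 16.8% and 6.05% with the hybridisation controls equal.

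The 9 members on the higher side were Mrps36 (200.1, 254.9, 129.7 and 265.8 on the media, SEA, LPS and SEA/LPS arrays, 1.04 log2), Mrpl11 (0.88), Mrps9 (0.88), Mrpl21 (0.77), Mrps18b (0.72), Mrps21 (0.69), Mrpl23 (0.67), Mrpl28 (0.65) and Mrpl32 (0.61). These were members whose LPS array was the low one, and with 1 array shared by both comparisons this is not a separate result. At 2-fold, Mrps36 was the 1 higher member (background 1.39%) and Mrps6 (-1.44) and Mrpl37 (-1.03) the 2 lower ones (background 3.47%). Mrpl37 read 92.7, 100.3, 99.4 and 48.8. Mrpl9 (-0.99), Mrpl38 (-0.90), Mrps7 (-0.86), Mrpl34 (-0.76) and Mrps2 (-0.64) were lower too, and the second probe sets of Mrpl9 (-1.57), Mrpl34 (-0.50) and Mrps2 (-0.79) pointed the same way. Of the 4 higher members with other probe sets, those of Mrpl21 and Mrpl28 (0.35) were above 0, while the means of those of Mrpl11 (-0.19) and Mrps9 (-0.15) were below it. Next in size were Mrpl18 (0.56) on the higher side and Mrpl12 (-0.49), Mrpl43 (-0.47) and Mrpl2 (-0.44) on the lower. The SEA/LPS array, lowest in those members, was also the one with the highest Gapdh 3' to 5' ratio, but the Actb ratio was highest on the SEA array. The part of RNA quality in these values was not tested.

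The SEA difference with LPS minus that without it had a median of 0.01 over the members (all genes -0.06), with 36 below 0 (background 54.4%). Mrpl11 (1.253) and Mrpl21 (1.12) were the 2 members past 2-fold on the higher side (background 3.16%). On the lower side were 4 (background 6.54%), namely Mrps6 (-1.32), Mrpl38 (-1.28), Mrpl37 (-1.14) and Mrpl9 (-1.11). Mrpl11 and Mrpl21 were low on the LPS array and these 4 on the SEA/LPS array. Read from the mean of all probe sets of a gene, or without suffixed probe sets, 0 members were past 2-fold higher. The value uses all 4 arrays once and has no replicate check.

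SEA/LPS over media shares the media array with LPS over media and the SEA/LPS array with SEA/LPS over SEA, and so is no separate result. The median was -0.34 (all genes -0.12), 59 of 74 were below 0 (background 58.8%), and 25 were at least 1.5-fold lower (background 20.2%) with 0 higher (background 9.89%). At 2-fold, 0 were higher (background 4.54%). Mrpl12 (-1.73), Mrpl49 (at least 2.48-fold lower), Mrpl2 (-1.22), Mrpl34 (-1.07), Mrps18b (-1.06) and Mrps11 (-1.01) were at least 2-fold lower (6 members, background 7.05%). With the 75th percentiles set equal, 15 members were at least 1.5-fold lower and 4 higher (all genes 13% and 14.7%), and with the hybridisation controls set equal 44 and 0 (all genes 38.1% and 5.72%). Of the 70 members above the floor on all arrays, 34 were lowest on the LPS array, 32 on the SEA/LPS array, 4 in media and 0 with SEA. This count was not made over all genes, so it has no background. Of all genes, 35.4% had both arrays with LPS below both arrays without it.

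Other genes of mitochondrial translation were read the same way. The structural proteins Dap3, Ptcd3, Chchd1 and Gadd45gip1 sit in the mitoribosome under other names. For LPS over media 4 of 4 were below 0 (background 53.3%), with a median of -0.85. Dap3, a GTP-binding protein of the small subunit, read 280.5, 241.5, 136.2 and 169.9 across the arrays, and Gadd45gip1 189.7, 135.7, 94.7 and 70.4. Both were lower on the arrays with LPS. Translation factors were split for LPS over media, with 4 of 10 at least 2-fold lower, 0 higher and a median of -0.68. Over all genes, 8.43% were at least 2-fold lower and 6.06% higher in this comparison, the background for this and the following lists, and a count of 1 to 4 in a list of this size is read only as a description. The elongation factor Tufm, which delivers aminoacyl-tRNA, read 78.9 in media and was under the floor on the other 3 arrays. The formylmethionine deformylase Pdf (-1.20), Mtres1 (-1.15) and the recycling factor Mrrf (-1.03) were lower, while the elongation factors Gfm1 (0.70) and Gfm2 (0.69) and the formyltransferase Mtfmt (0.88) were above 0. Oxa1l, the insertase that receives the chains, read 99.9, 40.2, 75.9 and under the floor, low on both arrays with SEA. The 2-fold count of translation factors did not recur on the second pair of arrays. For SEA/LPS over SEA, 0 of 10 were at least 2-fold lower (background 6.38%), with a median of -0.20 (all genes -0.15). For SEA over media, 2 of 10 were (background 0.633%), with a median of -0.27 (all genes 0).

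Assembly and rRNA modification factors had 3 of 19 members at least 2-fold lower for LPS over media and 0 higher (median -0.37), namely the protease subunit Afg3l2 (-1.44), C1qbp (-1.15) and the GTPase Noa1 (-1.04). Genes of mitochondrial DNA and RNA had 1 of 20 lower, Hsd17b10 (-1.06), and 1 higher, Pnpt1 (1.61), the polynucleotide phosphorylase, which read 83.7 and 81.6 without LPS and 255.6 and 203.3 with it. Tfb2m (-0.95) was lower, and Tfam (0.42) and Polrmt (0.39) above 0. The mitochondrial tRNA synthetases and amidotransferase subunits had 0 of 10 past 2-fold (median -0.31) and the import machinery 2 of 29 lower and 0 higher (median -0.33).

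Among 12 regulators of mitochondrial biogenesis, 3 were at least 2-fold lower and 1 higher with LPS over media. The coactivator Ppargc1b read 202.6 in media and 202.7 with SEA and was under the floor on both arrays with LPS, at least 6.08-fold lower. Myc, a transcription factor for growth genes, read 190.3 and 230.6 without LPS and was under the floor on both arrays with it, at least 5.71-fold lower for LPS over media. Atf5 was lower (-1.27), and Gabpb1, the partner of GABP's DNA-binding subunit, was higher (57.5, 44.1, 136 and 99.3, or 1.24 log2). The DNA-binding subunit Gabpa (-0.11), Nrf1 (-0.15) and Yy1 (-0.24) were within 1.5-fold.

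The respiratory chain and ATP synthase, whose core subunits this ribosome makes, and the cytosolic ribosome serve for comparison. For LPS over media, the 83 nuclear-encoded respiratory chain and ATP synthase genes had a median of -0.27 with 18 at least 1.5-fold lower (21.7%). The 45 cytosolic ribosomal protein genes had one of -0.10 with 6 lower (13.3%). The members had -0.40 and 33.8%, and all genes -0.06 and 21%. The share of the respiratory chain list was thus near the background and that of the cytosolic list under it. For SEA/LPS over SEA the medians were -0.16 and -0.07 against -0.39. For SEA/LPS over LPS they were 0.26 and 0.21 against 0.06. These are descriptions from single arrays and the differences between lists were not tested.

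**Figure D5:**
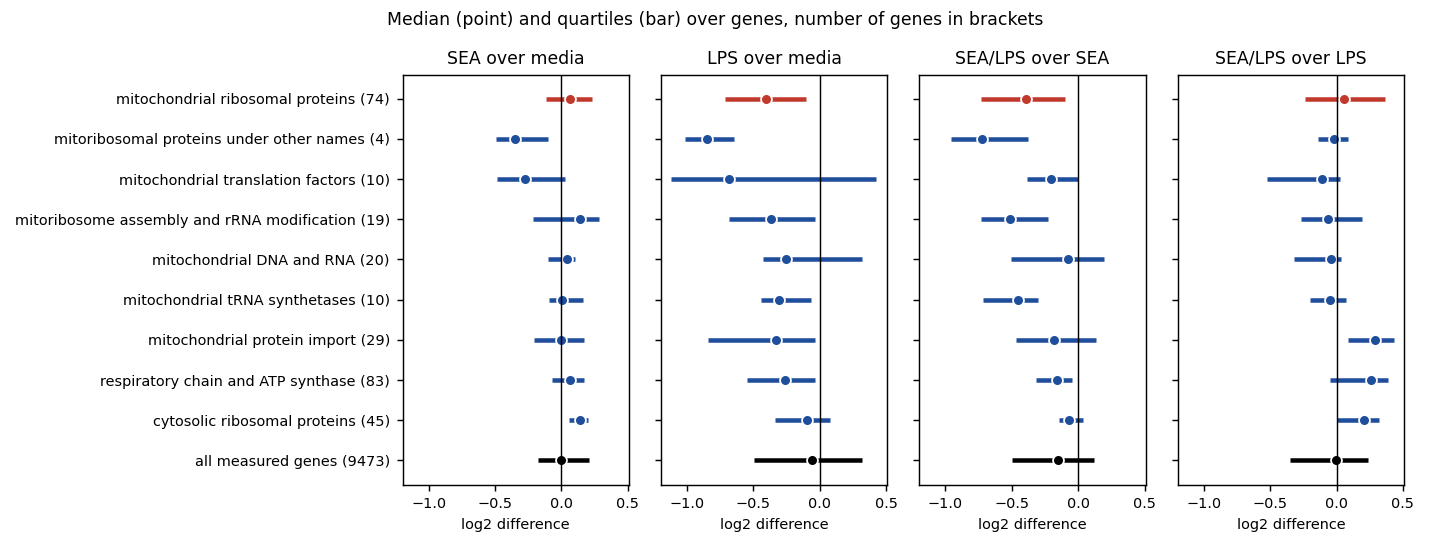
Median (point) and quartiles over genes (bar) of the log2 difference for the members (red), related lists (blue) and all measured genes (black) in 4 comparisons, with the number of genes in brackets. The members lie at -0.40 and -0.39 in the comparisons of LPS without and with SEA and near 0 in both comparisons of SEA.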

How the data were processed

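The authors deposited 1 table of array intensity values for 22690 Affymetrix probe sets on 4 arrays; the software, background step and scaling rule are not stated in the labels or the file. The linear intensity columns had equal 2% trimmed means of 150.1 and were used as deposited, so differences in total RNA content cannot be seen. Probe sets were named from the platform annotation (20380 with 1 symbol, 691 with several, 1555 with none, 64 controls); all 74 members matched the RefSeq table of GRCm38.p6 by Entrez identifier.

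A floor at the 40th percentile of the pooled columns (33.3) replaced any dimmer signal before log2. The brightest probe set stood for a gene. Where 1 of the arrays compared was at the floor, the size is a bound, written at least N-fold. Values were computed with Python 3.11.15 and pandas 2.3.3, and the functions were tested on simulated data. With 1 array per group no test was run and no SD exists; the number of arrays limits the precision. Member lists, roles and thresholds were chosen with earlier results of these data known. Named members were those past 2-fold in any comparison and the 10 highest and lowest in each SEA comparison and in LPS over media, with up to 6 genes from each other list. Other members, and Gabpa, Nrf1 and Yy1, were named as contrasts after their values were seen.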

Additional observations from a re-analysis of the deposited data

Results flagged for a closer look

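In 5 members the SEA difference had opposite directions without and with LPS, past 0.32 log2 each way. The share of all genes past this rule was not counted. Where neither difference was 0, the 2 had the same sign in 58.3% of 72 members and 49.9% of 8286 genes, so opposite signs are common. The difference between the 2 was not tested, since each value comes from 1 pair of arrays. For Mrpl11 the SEA difference was -0.37 log2 over media and 0.88 over LPS, apart by 1.253, but its other probe sets read 0.03 and -0.41 over LPS. For Mrpl21 the values were -0.35 and 0.77, apart by 1.12, and its other probe set was under the floor on the LPS array and read 46.4 on the SEA/LPS array. For Mrpl40 they were -0.39 and 0.47, apart by 0.86. Mrpl38 ran the other way, with 0.38 over media and -0.90 over LPS, a difference of -1.28, as did Mrps22, with 0.48 and -0.40, a difference of -0.88.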

How the results depend on the processing

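No paired analysis was possible because each group has 1 sample, and no sample could be left out for the same reason. The medians of the members and their counts past 2-fold were recomputed under 9 alternatives (3 scalings, 2 floors, a filter, 2 choices of probe set and a wider member list), and a median was taken as moved past 0.1 log2. Counts for SEA/LPS over media and for the SEA difference with LPS minus that without were added after seeing the data. No median turned its direction where it was past 0.1. For LPS over media the median was -0.26 with the 75th percentiles set equal, -0.94 with the hybridisation controls set equal and -0.23 over 56 members without suffixed probe sets. For SEA/LPS over SEA it was -0.21 with the 75th percentiles equal and -0.61 with the hybridisation controls, and for SEA/LPS over media -0.14 and -0.65, and -0.235 under quantile normalization. With the hybridisation controls equal, SEA/LPS over LPS was 0.27, and the SEA difference with LPS minus that without was 0.33 (0.01 as deposited). Members at least 2-fold lower were then 34 for LPS over media (all genes 25.5%), 17 for SEA/LPS over SEA (12%), 22 for SEA/LPS over media (15.3%) and 1 for SEA over media (1.08%), and 4 were higher for SEA/LPS over LPS (3.14%). For the SEA difference with LPS minus that without, 7 were then higher (8.22%) and 0 lower (2.55%), and 0 were higher with the mean of all probe sets (2.42%) and without suffixed probe sets (3.32%). The 6 lower members of SEA/LPS over media became 3 with the 75th percentiles equal (4.51%) and 3 under quantile normalization (4.97%). The 8 lower members of SEA/LPS over SEA became 5 with the 75th percentiles equal (3.84%), 4 under quantile normalization (4.19%) and 5 without suffixed probe sets. Mrps18b (-0.98) and Mrpl18 (-0.88) fell short of 2-fold with the 75th percentiles equal. Mrps18b (-0.94), Mrpl18 (-0.84) and Mrps11 (-0.98) did so under quantile normalization, while Mrpl12 (-1.33) did not. The 2 lower members of SEA/LPS over LPS became 1 under all 3 scalings, at the higher floor and without suffixed probe sets, and 2 were higher under quantile normalization. The lower floor gave 1 member higher with SEA over media. Scaling acts on all genes at once, and the cause of the other moves was not tested. Of 74 members, 4 (Mrpl1, Mrpl49, Mrps5 and Mrps11) had at least 1 array at the floor, where only bounds can be read.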

Other observations

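Probe sets that name a mitoribosomal protein together with another gene were left out of the members and are given here as values. The probe set shared by Mrpl30 and the predicted gene Gm6238 read 378.1 in media, 411 after SEA, 283.7 after LPS and 448.1 after SEA/LPS. The LPS array was the lowest of the 4, and the SEA/LPS array the highest. The one shared by Mrpl53 and Ccdc142 read 136.4, 186.1, 126 and 121.3. The one shared by Mrps34 and Nme3 was under the floor on all 4 arrays, while the probe set of Mrps34 alone read 518.3, 490, 449.4 and 448.4.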
